A study of Rattus norvegicus with 18 samples.

Results

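Oligodendrocyte progenitor cells (OPCs) from neonate rats were compared on hydrogels that the labels call soft and stiff. The 6 libraries described here, 3 per gel, were chosen by their labels and belong to a series of 18; they were fitted alone across all genes. Cells of both groups had been sorted with magnetic beads and grown with FGF and PDGF on gels coated with laminin. The series also holds 6 libraries of aged OPCs on the same kinds of gel, used below for comparison, and 6 of sorted cells. The sources used here give neither the stiffness of the gels nor the time in culture, the day of age or the antigen used for sorting. Whether the libraries of a gel stem from different animals or dishes is not stated. The spread behind the p-values is that between these libraries, for gene tests pooled in part over genes, and may be technical.

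OPCs divide in response to PDGF, which binds the receptor Pdgfra, and are held as progenitors by it. When they leave the cell cycle they pass through a committed, premyelinating stage and then make myelin, whose main proteins include Mbp. Cells sense the stiffness of their surroundings through integrins, the actin cytoskeleton and stretch-gated channels such as Piezo1, and the transcriptional coactivators Yap1 and Wwtr1 (TAZ) are known to respond to it in many cell types.

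Levels are given as TPM, a length-corrected share of the transcripts in a library, divided by a scaling factor per library (scaled TPM), always in the order replicate 1, 2 and 3. A difference is soft minus stiff on the log2(scaled TPM + 1) scale, which understates the change of low genes. Depth was low. The libraries held the equivalent of 28442 to 57666 read pairs outside ribosomal RNA, so that for a transcript of 2 kb the level given by 1 read pair was 2.76 to 5.96 scaled TPM. Genes above 0 numbered 8157, 9629 and 7834 in the soft libraries and 7327, 6598 and 7116 in the stiff libraries. This was higher in each soft library, with an exact two-sided permutation p of 0.1, the smallest that 3 against 3 can give, and an adjusted p of 0.3 over 4 library measures. Ribosomal RNA took 30.8% to 47.1% of pairs in soft and 42.2% to 57.6% in stiff libraries (exact permutation p = 0.3). Olfactory receptor genes, which OPCs are not known to use, were above 0 at 18.8% and 9.87% of 1196 in soft replicates 2 and 3, against 1.92% to 2.01% in the other 4 libraries; their part in the results was not tested.

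Individual libraries departed from their group. Among 491 genes with a mean of at least 50 scaled TPM, soft replicate 3 had a Spearman correlation across genes of 0.725 with stiff replicate 3. It was 0.582 with soft replicate 1 and 0.648 with soft replicate 2, and soft replicates 1 and 2 reached 0.783. Over all 7838 genes tested, soft replicate 3 was nearly as close to soft replicate 1 (0.536) as to stiff replicate 3 (0.545). Genes are not independent replicates, so these values only describe the libraries. Soft replicate 3 carried more transcripts of committed oligodendrocytes than the other soft libraries, and stiff replicate 3 lacked the high iron and stress transcripts of the other stiff libraries. Values without these libraries are given beside the results they touch.

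Of 7838 genes tested, limma, with Benjamini-Hochberg adjustment, called 1 gene lower on soft gel (0.0128%) and 0 higher (0%) at an adjusted p under 0.05. At an unadjusted p under 0.05 there were 338 genes higher (4.31%) and 206 lower (2.63%) on soft gel. The 3 soft libraries all lay above the 3 stiff libraries for 556 genes (7.09%) and all below them for 359 genes (4.58%). Without scaling this split was 736 and 155 genes. A difference above 0 was found for 4353 genes (55.5%) and below 0 for 3485 (44.5%). The median difference of all genes tested was 0.14, with 0.44 without scaling and 0.071 without soft replicate 1 and 0.074 without soft replicate 2, so each group of genes below is read against that background. With voom, an alternative that weights genes by their estimated reads, 18 genes were called higher (0.23%) and 27 lower (0.344%). That fit puts weight on genes with more reads, and the genes it named included Olig1, Gsn and Nusap1 on the higher side and Mbp, Cldn11, Bcas1, Nfasc, Hmox1 and Fth1 on the lower side, besides 3 ribosomal RNA genes. Its p-values can be small where the libraries of a gel differ widely, as for Hmox1 below. They do not show that the libraries of a gel were alike.

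**Figure D1:**
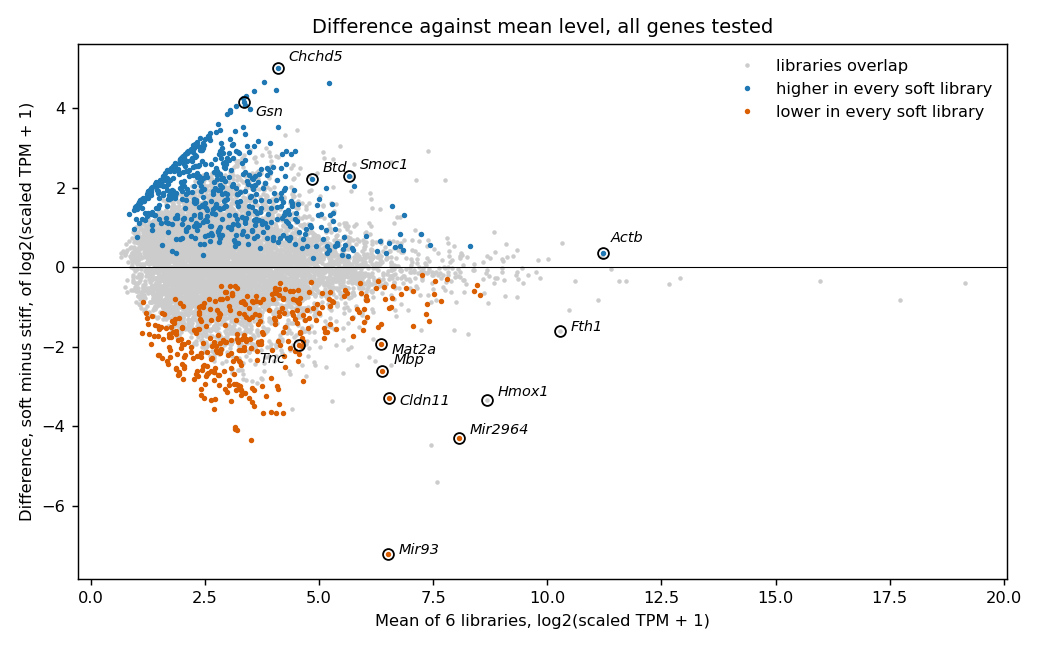
Difference between soft and stiff gel on the log2(scaled TPM + 1) scale (vertical axis) against the mean level of the 6 libraries on a log2 scale (horizontal axis) for the 7838 genes tested; each point is a gene, coloured where the soft and stiff libraries did not overlap, and open circles mark genes named in the text. Mir93 lies lowest at -7.22, and Hmox1 and Fth1 are low on average although their libraries overlapped.

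The called gene was the microRNA locus Mir93, and 2 of the other named loci lower on soft gel were microRNA hairpins too. Mir93 (chr12:19307543-19307629 on rn6, minus strand) lies within the replication gene Mcm7. It was at 0 in all 3 soft libraries and at 55.7, 199.9 and 287 scaled TPM in the stiff libraries, and it passed the test (limma adjusted p = 0.00863). The fitted difference of -7.22 (SE 0.73) depends on the pseudocount, since 1 side is at 0, and was -10.53 with a pseudocount of 0.1, where the adjusted p was 0.115. The locus is 87 bases long, and the stiff values rested on coverage equal to 0.58, 1.47 and 2.74 full read pairs of 300 bases. A read of 150 bases can add at most 87 bases to the locus, so more pairs than this touched it. Mcm7 itself stood at 23.1, 31.2 and 28.3 in soft and 15.4, 27.6 and 19.3 in stiff libraries, which overlapped, and the neighbouring Mir106b and Mir25 overlapped as well. Without any one of the stiff libraries the locus is above 0 in only 2 libraries and fails the filter on low values, so the call needs all 3. Voom gave an adjusted p of 0.251, and the fit over all 12 gel libraries 0.258.

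Mir2964 (chr3:8407427-8407526, plus strand), the locus of miR-219b, was at 2.91, 28.7 and 120.4 scaled TPM in soft and 356, 444 and 656 in stiff libraries. All 3 stiff libraries lay above all soft ones, with a difference of -4.29 (SE 0.95, adjusted p = 0.442); without soft replicate 3 the difference was -5.46 and passed the test (limma adjusted p = 0.00999). Mir219-1 (chr20:3816158-3816267), a source of miR-219a, a microRNA known to promote oligodendrocyte differentiation, was at 34.7, 46.4 and 34.96 in soft and 80.8, 164 and 100.3 in stiff libraries, again without overlap (-1.50, adjusted p = 0.504). Mir219-2, which lies opposite Mir2964 on the other strand, was at 0, 0 and 186 in soft and 37.7, 0 and 51.2 in stiff and overlapped. Quantification carried no strand option, and the reads, of 150 bases, are longer than a mature microRNA, so these values count transcripts that cross the hairpin, from either strand, and are not levels of the mature microRNAs.

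The mature sequences of these loci are shown because they are the products by which the loci are known, with the seed (bases 2 to 8) in capitals. They are from RefSeq on GRCr8.
rno-miR-93-5p: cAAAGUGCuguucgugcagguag
rno-miR-219b: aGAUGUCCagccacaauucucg
rno-miR-219a-5p: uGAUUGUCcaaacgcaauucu
rno-miR-219a-1-3p: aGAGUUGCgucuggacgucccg
rno-miR-219a-2-3p: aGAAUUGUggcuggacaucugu
The 5 seeds differ from each other. The hairpin of Mir2964 (chr3:33516501-33516600, plus strand, GRCr8) is shown with miR-219b in capitals, since the measured level counts reads over a locus of these 100 bases.
Mir2964 hairpin: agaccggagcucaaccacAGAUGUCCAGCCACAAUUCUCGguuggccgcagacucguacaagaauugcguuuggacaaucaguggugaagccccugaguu

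Genes that mark OPCs were present on both gels, and their differences went in both directions without passing the test in limma. In these bulk samples fewer cells of a type and less RNA per cell cannot be told apart. Of 24 OPC genes tested, 15 had a difference above 0 (62.5%, where all genes tested had 55.5%) and 9 below, with a median of 0.57 against 0.14 for all genes, and 0.20 to 0.90 over the alternatives (0.31 without soft replicate 3, 0.35 without stiff replicate 1 and 0.20 without stiff replicate 2, with 0.71 without stiff replicate 3). Not overlapping were 1 gene above and 2 below, which is near the background of 7.09% and 4.58%. Olig1, a transcription factor of the lineage, was at 527, 589 and 568 scaled TPM in soft and 194, 232 and 619.5 in stiff libraries. The 3 soft libraries were alike, stiff replicates 1 and 2 were lower, and stiff replicate 3 was the highest of the 6. Its difference was 0.88 (SE 0.41, limma adjusted p = 0.73; voom adjusted p = 0.0488). Without stiff replicate 3 it was 1.41 (limma adjusted p = 0.478). Voom called 1 member in each direction, and the one lower on soft gel was the matrix protein tenascin R, Tnr, at 0, 4.63 and 26.4 in soft and 21.8, 16.0025 and 34.1 in stiff libraries (limma difference -2.15, adjusted p = 0.761; voom adjusted p = 0.000103). Soft replicate 3 lay within the stiff range of Tnr, and soft replicates 1 and 2 below it.

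Pdgfra, the receptor that PDGF binds, was at 46.1, 51.4 and 41.8 in soft and 17.3, 17.2 and 41.8 in stiff libraries (difference 0.96, 95% interval -0.09 to 2.01). Stiff replicate 3 reached the level of the soft libraries. Cspg4, the NG2 proteoglycan of progenitors, was at 13.2, 23.95 and 12.1 in soft and 5.98, 2.50 and 18.2 in stiff, with the lowest values again in stiff replicates 1 and 2. The adhesion protein Cntn1 was at 83.5, 66.8 and 92.9 in soft and 31.8, 33.2 and 76.2 in stiff. Here stiff replicates 1 and 2 were the lowest libraries and stiff replicate 3 lay within the soft range. Sox10, the factor that defines the whole lineage, was at 125, 209 and 237 in soft and 155, 192 and 283 in stiff, and Olig2 at 101, 73.5 and 89.7 in soft and 29.2, 73.95 and 81.3 in stiff. These overlapped, with differences of -0.15 (95% interval -0.94 to 0.64) and 0.63 (-0.34 to 1.60). Sox5, a repressor of differentiation, was low at 2.79, 9.51 and 5.58 in soft libraries and at 0 in all stiff libraries. Nkx2-2, a factor of differentiating OPCs, lay lower in soft libraries (33.05, 25.6 and 2.74) than in stiff ones (37.3, 36.2 and 70.8), and the proteoglycan Ncan was at 152, 165 and 162 in soft and 172, 269 and 186 in stiff; the difference of Ncan turned its sign without scaling.

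Transcripts of committed, premyelinating oligodendrocytes were lowest in soft replicates 1 and 2 and higher in the other 4 libraries. The summed level of the 23 genes listed was 336, 1008 and 2351 in soft and 1493, 1488 and 2360.2 in stiff libraries. Of 18 tested, 13 had a difference below 0 (72.2%, where all genes tested had 44.5%), and the median was -1.02 (-1.60 to -0.38 over the alternatives, -0.38 without soft replicate 1 and -1.60 without soft replicate 3). Limma called 0 and voom called 5 of them lower. Not overlapping were 1 gene above and 1 below (5.56% each, where all genes had 7.09% and 4.58%).

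Sirt2, a deacetylase of myelinating cells, was at 40.7, 86.4 and 367 scaled TPM in soft and 395, 294 and 309 in stiff libraries. Soft replicate 3 lay among the stiff libraries, and soft replicates 1 and 2 lay below all of them. Its difference was -1.58 (SE 0.63, limma adjusted p = 0.606; voom adjusted p = 2.37e-06). Bcas1, which marks early myelinating cells, was at 18.8, 57.2 and 239.7 in soft and 179, 169.8 and 238 in stiff. Nfasc, a cell adhesion protein of axon contacts, was at 6.02, 16.5 and 50.1 in soft and 70.9, 81.2 and 46.4 in stiff (limma adjusted p = 0.535, voom 2.44e-07). For these 2 genes, too, soft replicate 1 had the lowest value, soft replicate 2 the next and soft replicate 3 a value within or above the stiff range. Gpr17, a receptor that is transient in premyelinating cells, was at 0, 19.8 and 106 in soft and 72.96, 73.9 and 64.4 in stiff. It lies within Lims2 on the opposite strand (82.9, 542 and 1120.1 in soft and 406, 492 and 1206 in stiff), so reads of the pair cannot be told apart. Enpp6, an early marker of differentiation, was at 0, 0 and 3.06 in soft and 4.74, 6.70 and 4.03 in stiff libraries, without overlap but at the level of about a read pair.

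Of the lists, myelin genes had the lowest median difference, -1.07 over 21 genes tested (-1.93 to -0.50 over the alternatives, -0.50 without soft replicate 1), with 16 below 0 (76.2%, where all genes had 44.5%) and 5 above. Not overlapping were 4 genes below (19%, background 4.58%) and 1 above; limma called 0, and voom called 3 lower and 1 higher. Mbp, a structural protein of compact myelin (chr18:79326738-79437310, plus strand), was at 5.83, 19.6 and 67.6 scaled TPM in soft and 158, 162 and 83.2 in stiff libraries. All soft libraries lay below all stiff ones, soft replicate 3 and stiff replicate 3 being nearest. The difference was -2.61 (SE 0.71, 95% interval -4.19 to -1.03; limma adjusted p = 0.504; voom adjusted p = 4.17e-06), from the equivalent of 2.31, 5.55 and 12.3 read pairs in soft and 39.9, 28.9 and 19.6 in stiff libraries. It was -1.78 without soft replicate 1, -3.45 without soft replicate 3 and -2.91 without stiff replicate 3, and limma called it in none of these.

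Cldn11, the tight junction protein of myelin (chr2:115823541-115836846, minus strand), was at 5.74, 10.9 and 36.4 in soft and 207, 229 and 57.01 in stiff libraries. Here, too, no soft library reached a stiff one, and stiff replicate 3 stood well below the other stiff libraries. Its difference was -3.28 (SE 0.70, limma adjusted p = 0.442; voom adjusted p = 1.55e-06). Myrf, the transcription factor that drives myelin genes, was at 9.14, 17.8 and 31.8 in soft and 35.5, 32.5 and 43.2 in stiff (-1.04, adjusted p = 0.797) and did not overlap. Mog, a surface protein of mature myelin, was at 86.1, 67.1 and 85.5 in soft and 155, 98.7 and 88.99 in stiff; the lowest stiff value stood just above the highest soft value, and its annotation overlaps a gene on the other strand. Gsn ran the other way. This actin-severing protein, which mature oligodendrocytes make in quantity, was at 16.1, 29.5 and 9.88 in soft libraries and at 0 in all stiff libraries (limma adjusted p = 0.442; voom adjusted p = 1.64e-05). In the 6 aged gel libraries it was above 0 throughout, at 16.7, 42.1 and 75.1 on soft gel and at 62.7, 23.4 and 51.5 on stiff gel.

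**Figure D2:**
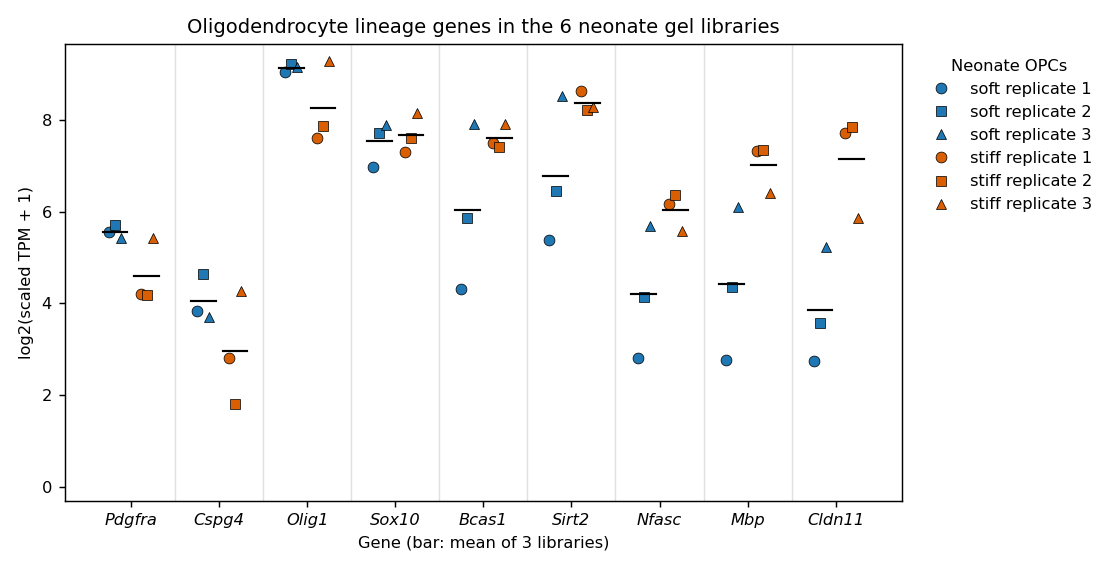
Level of 9 genes of the oligodendrocyte lineage, from progenitor genes on the left to myelin genes on the right, on the log2(scaled TPM + 1) scale (vertical axis) in each of the 6 libraries; points are libraries, shapes replicate numbers, colours gels, and bars the mean of 3 libraries. Soft replicate 1 is lowest for each gene from Sox10 to Cldn11, and for Pdgfra, Cspg4 and Olig1 stiff replicates 1 and 2 are the lowest libraries.

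Several genes of iron storage and of the response to oxidative stress separated stiff replicates 1 and 2 from the other 4 libraries. These genes were chosen after their values were seen, as textbook targets of the stress factor NRF2 or proteins of iron storage, and support nothing beyond the description. Hmox1, the haem oxygenase that frees iron from haem (chr19:14508634-14515456, plus strand), was at 21.3, 25.96 and 41.8 scaled TPM in soft and 1268, 1086 and 17.9993 in stiff libraries. Stiff replicate 3 was the lowest of the 6, and stiff replicates 1 and 2 stood far above the rest, on the equivalent of 235, 142 and 3.06 read pairs in the 3 stiff libraries. The difference was -3.33 (SE 1.27, limma adjusted p = 0.575; voom adjusted p = 1.55e-09). Without stiff replicate 3 it was -5.30 and the gene passed the test (limma adjusted p = 0.00147).

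Fth1, the heavy chain of ferritin, was at 413, 412 and 620.3 in soft and 2776, 2837 and 379.9 in stiff libraries, and Gdf15, a secreted protein induced by cell stress, at 23.4, 14.2 and 0 in soft and 280.5, 706 and 19.5 in stiff. In both, stiff replicates 1 and 2 stood far above stiff replicate 3, which was at the level of the soft libraries. Ftl1, the light chain of ferritin, was at 58.6, 71.1 and 181 in soft and 212, 283 and 212 in stiff without overlap, and here stiff replicate 3 was as high as stiff replicate 1. Nqo1, a quinone reductase, was at 3.28, 4.39 and 0.971 in soft and 36.03, 29.1 and 12.2 in stiff, and Sqstm1, an autophagy receptor, at 119, 69.3 and 99.5 in soft and 233, 308 and 132 in stiff. Neither overlapped, and stiff replicate 3 had the lowest stiff value in both. Of the 20 members tested of the wider list, 15 had a difference below 0 (75%, where all genes had 44.5%). In 3 members every soft library lay below the stiff libraries (15%, background 4.58%), and 0 members lay above (background 7.09%). The median was -0.64 (-0.93 without stiff replicate 3). The summed level of the list was 911, 903 and 1249 in soft and 5035, 5038 and 1031 in stiff libraries. Most of that sum in stiff replicates 1 and 2 came from Fth1 and Hmox1, so it does not describe the list as a whole.

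Chaperones and proteins of the unfolded protein response stood lower on soft gel more often than higher. Of 27 tested, 6 did not overlap and lay below (22.2%, background 4.58%) and 0 lay above. The 6 were Hspb8, Hsp90b1, Dnajb1, Atf4, Pdia4 and Herpud1. A difference below 0 was found for 19 (70.4%, where all genes had 44.5%), and the median was -0.60 (-0.83 to -0.20 over the alternatives, -0.29 without soft replicate 2, and -0.79 without stiff replicate 3); limma and voom both called 0 of them. Hspb8, a small heat shock protein, was at 5.58, 7.75 and 11.0021 in soft and 52.8, 51.2 and 14.2 in stiff libraries (-1.98, adjusted p = 0.518). Stiff replicates 1 and 2 were high and stiff replicate 3 lay just above the soft range. Hsp90b1, a chaperone of the endoplasmic reticulum, was at 105, 88.9 and 116 in soft and 207, 156 and 118 in stiff (-0.60, adjusted p = 0.833), with stiff replicate 3 again next to the soft libraries. Hspa5 (BiP), the main chaperone of that compartment, was at 102, 130.4 and 164 in soft and 319.8, 279 and 137 in stiff and overlapped through stiff replicate 3. Atf4, the transcription factor of the integrated stress response, was at 55.5, 37.1 and 10.9 in soft and 71.3, 71.3 and 66.8 in stiff, and Xbp1, another regulator of the response, at 69.2, 84.7 and 31.9 in soft and 72.8, 146 and 151 in stiff. For Atf4 the 3 stiff libraries were alike and soft replicate 3 was far lower than the other soft libraries. The cytosolic chaperones Hsp90ab1 (391, 275 and 263 in soft and 299, 199 and 247 in stiff) and Hspa8 (142, 167 and 151 in soft and 184, 133 and 154 in stiff) overlapped, with differences of 0.31 and -0.02.

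The element by which unfolded protein response genes are known to be driven, CCAAT followed by any 9 bases and CCACG, was searched on both strands in RefSeq promoters of 300 bases (250 before to 50 after the start, GRCr8). It was present in 6 of the 27 promoters matched for this list (22.2%) and in 21 of all 27457 (0.0765%). The list was made up of known genes of this response and of chaperones, so a higher share was built in. It does not bear on the gels. The members that held it were Hspa5, Hsp90b1, Dnajc3, Xbp1, Calr and Canx, of which Hsp90b1 alone did not overlap between the gels. The promoter of Hsp90b1 (chr7:23012244-23012543, minus strand) holds 2 matches and that of Hspa5 (chr3:38452766-38453065, plus strand) 1, in capitals. They are shown because these were the reticulum chaperones with the highest levels among the members that hold a match. A match is a description of the letters and not a site in use.
Hsp90b1 promoter: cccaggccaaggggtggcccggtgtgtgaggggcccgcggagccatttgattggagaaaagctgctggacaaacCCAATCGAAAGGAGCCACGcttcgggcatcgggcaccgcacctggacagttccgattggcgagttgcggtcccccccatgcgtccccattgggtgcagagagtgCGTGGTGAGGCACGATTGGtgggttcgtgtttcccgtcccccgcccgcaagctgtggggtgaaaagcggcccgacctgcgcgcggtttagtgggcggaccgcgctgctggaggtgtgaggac
Hspa5 promoter: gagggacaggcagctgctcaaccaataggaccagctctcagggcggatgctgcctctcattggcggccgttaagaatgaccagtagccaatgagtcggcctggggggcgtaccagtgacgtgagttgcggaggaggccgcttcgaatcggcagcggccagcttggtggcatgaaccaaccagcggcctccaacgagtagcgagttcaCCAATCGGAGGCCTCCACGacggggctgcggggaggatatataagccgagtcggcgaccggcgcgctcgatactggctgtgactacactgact

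**Figure D3:**
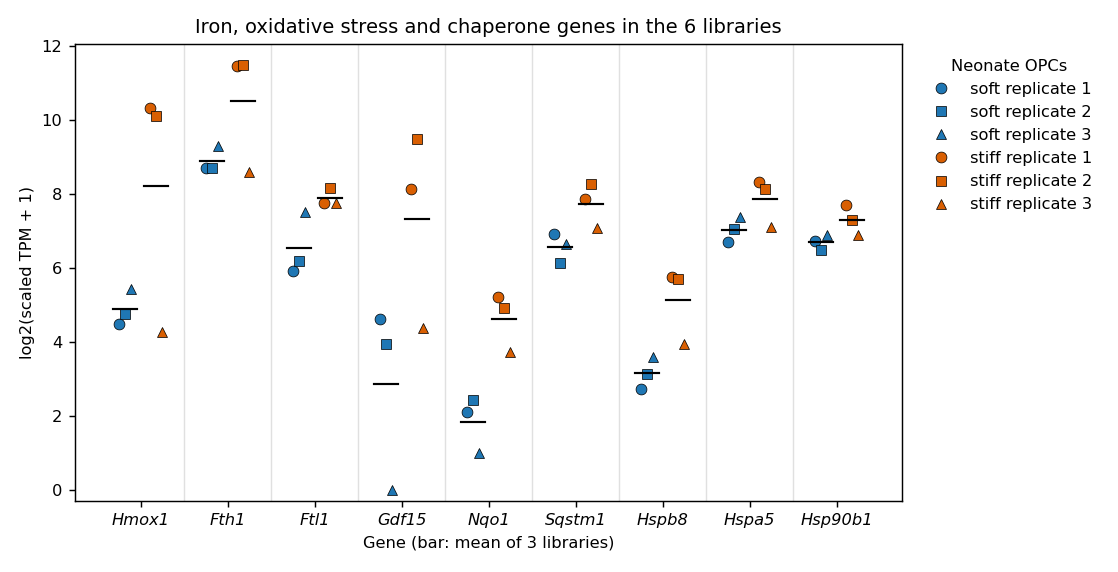
Level of 9 genes of iron storage, oxidative stress and protein folding on the log2(scaled TPM + 1) scale (vertical axis) in each of the 6 libraries; points are libraries, shapes replicate numbers, colours gels, and bars the mean of 3 libraries. Stiff replicates 1 and 2 are the 2 highest for each of the genes shown except Ftl1, where stiff replicates 1 and 3 are nearly equal, and stiff replicate 3 lies near or within the soft range for Hmox1, Fth1, Gdf15, Hspa5 and Hsp90b1.

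Cell cycle genes were at low levels, and their median differences depended on soft replicate 1. Of 33 genes of the G2 and M phases tested, 24 had a difference above 0 (72.7%, where all genes had 55.5%), 6 lay above the stiff libraries without overlap (18.2%, background 7.09%) and 1 below (3.03%, background 4.58%). Their median was 0.58 (0.05 to 0.93 over the alternatives, 0.046 without soft replicate 1 and 0.22 without stiff replicate 2). For 30 genes of S phase and replication the median was 0.30 (0.04 to 0.70 over the alternatives, 0.044 without soft replicate 1, 0.61 without soft replicate 3 and 0.12 without stiff replicate 1), with 2 genes above without overlap (6.67%) and 0 below. Limma called 0 in either list, and voom called Nusap1, a protein of the mitotic spindle, which was at 11.8, 15.9 and 13.2 in soft and 2.79, 0 and 0 in stiff libraries (3.22, voom adjusted p = 0.0488). Ccnb1, the cyclin of mitotic entry, was at 9.80, 6.32 and 5.43 in soft and 0, 1.63 and 0 in stiff, and Mcm6, part of the replicative helicase, at 21.7, 29.8 and 14.03 in soft and 8.39, 3.98 and 6.08 in stiff. All 3 soft libraries lay above all stiff ones for these genes, whose levels correspond to a few read pairs. The commonest markers of dividing cells did not share this: Mki67 was at 10.7, 6.70 and 4.76 in soft and 3.37, 4.38 and 10.5 in stiff and Top2a at 23.5, 9.61 and 3.56 in soft and 14.98, 21.7 and 11.9 in stiff, both overlapping. Cks2, a partner of cyclin-dependent kinases, lay lower in soft libraries (0, 7.45 and 5.31 against 12.5, 75.2 and 8.59). Cdkn1c, an inhibitor of these kinases (p57) known in oligodendrocyte differentiation, was at 3.41, 9.86 and 21.3 in soft and 35.9, 47.4 and 27.3 in stiff libraries without overlap (-1.85, adjusted p = 0.524).

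No difference was detected in most genes of the machinery that senses stiffness, whose levels were low. Of 12 stretch-gated or related channels tested, 1 lay above (8.33%) and 2 below (16.7%) without overlap, where all genes had 7.09% and 4.58%. Of 18 genes of the Yap1 and TAZ pathway 0 lay above and 1 below (5.56%), the Hippo kinase Stk4 (0.803, 0 and 0 in soft and 4.26, 6.78 and 1.78 in stiff). Their medians, 0.36 and 0.25, changed sign between alternatives (-0.16 to 0.64 and -0.22 to 0.59). The channel above was Trpv4 (1.18, 1.35 and 4.99 in soft and 0, 0 and 0.808 in stiff), and those below were Pkd2 (4.35, 1.07 and 4.36 in soft and 7.14, 8.41 and 10.05 in stiff) and Asic1 (4.31, 7.72 and 3.83 in soft and 8.32, 8.91 and 8.02 in stiff). Piezo1 was at 1.96, 4.28 and 1.35 in soft and 0.897, 2.13 and 1.88 in stiff libraries, with a difference of 0.37 whose 95% interval of -1.51 to 2.25 leaves a several-fold change in either direction undetected at this depth. The Yap1 targets Ctgf and Cyr61 were listed at 0 in all 6 and in 5 of the 6 libraries, and Yap1 itself was at 14.4, 0 and 11.7 in soft and 5.57, 0 and 0 in stiff. Among integrins, the laminin receptor subunits Itgb1 (21.95, 5.36 and 14.4 in soft and 37.1, 2.61 and 8.65 in stiff) and Itga6 (4.43, 1.16 and 1.93 in soft and 2.36, 0 and 0 in stiff) overlapped. Of 27 genes of integrins and adhesion, 3 lay above without overlap (11.1%), among them Fermt2 (27.2, 16.4 and 20.4 in soft and 14.3, 12.5 and 10.1 in stiff), which activates integrins, and Ctnnb1 (58.4, 43.3 and 54.9 in soft and 41.3, 40.9 and 31.8 in stiff). There was 1 below (3.7%), the adhesion molecule Ncam1 (8.86, 31.7 and 41.7 in soft and 45.05, 44.8 and 48.4 in stiff).

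The actins Actb and Actg1 were abundant and close between the gels. Actb was at 2713, 3091 and 2288 scaled TPM in soft and 1983, 2218 and 2117 in stiff libraries, all soft libraries lying above all stiff ones, with a difference of 0.35 (95% interval -0.23 to 0.92; adjusted p = 0.905). Its partner Actg1 was at 544, 552 and 688 in soft and 694, 694 and 643 in stiff and overlapped (-0.19). Actn4, which crosslinks actin, was at 28.1, 38.4 and 28.5 in soft and 12.1, 15.9989 and 25.9 in stiff without overlap. Over 45 actin and myosin genes tested the median was 0.12 (0.046 without soft replicate 1, 0.22 without soft replicate 2, 0.26 without soft replicate 3 and 0.28 without stiff replicate 1), against 0.14 for all genes. Of them 4 lay above and 1 below without overlap (8.89% and 2.22%, where all genes had 7.09% and 4.58%). Besides Actb and Actn4, those above were Gsn, given with the myelin genes, and Tpm4 (14.7, 9.55 and 11.8 in soft and 6.72, 0 and 0 in stiff). Pfn2 lay below (9.50, 0 and 0 in soft and 10.8, 26.2 and 18.9 in stiff). The list of serum response factor targets and immediate early genes had 1 of 26 above and 1 below without overlap (3.85% each). Its median was 0.48 (0.24 to 0.86 over the alternatives, 0.30 without soft replicate 1, 0.72 without soft replicate 3 and 0.85 without stiff replicate 2). The member above was the AP-1 factor Jund (46.1, 44.9999 and 56.2 in soft and 35.8, 37.1 and 44.9 in stiff) and the one below the growth factor target Myc (4.50, 8.18 and 8.43 in soft and 9.57, 18.5 and 9.48 in stiff). The most abundant, the calponin relative Tagln2, was at 359, 133 and 83.8 in soft and 93.5, 255.7 and 54.8 in stiff, with the highest values in soft replicate 1 and stiff replicate 2.

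Matrix genes went in both directions. Of 28 tested, 6 lay above without overlap, which is 21.4% beside a background of 7.09%, and 3 below (10.7%, background 4.58%). Tnc, tenascin C, a matrix glycoprotein made by OPCs and astrocytes (chr5:79790275-79849865, minus strand), was at 8.40, 11.2 and 5.43 in soft and 54.9, 34.9 and 20.2 in stiff libraries (-1.95, limma adjusted p = 0.504; voom adjusted p = 0.0121). No soft library reached a stiff one. Spp1, osteopontin, was at 0, 0 and 14.2 in soft and 30.9, 33.6 and 26.9 in stiff, likewise without overlap. Sparcl1, a secreted matrix protein, was at 38.1, 50.7 and 86.7 in soft and 187, 199 and 42.8 in stiff, with stiff replicates 1 and 2 high and stiff replicate 3 within the soft range. On the other side Timp1, an inhibitor of matrix proteases, was at 31.5, 18.6 and 6.51 in soft libraries and at 0 in all stiff libraries, and the laminin chain Lama5, called by voom alone, was at 3.24, 5.75 and 2.50 in soft and 0.422, 0 and 0 in stiff. Also above were the laminin chain Lama4 (11.6, 7.07 and 6.87 in soft and 0, 6.77 and 3.81 in stiff), the collagen-modifying enzyme Plod2 (1.15, 1.86 and 5.96 in soft and 0, 0 and 0 in stiff) and the matrix protease Mmp2 (6.33, 10.2 and 7.2017 in soft and 5.22, 2.58 and 4.76 in stiff). Loxl2, which crosslinks collagen, was the third member below, at 6.05, 6.82 and 2.76 in soft and 6.97, 7.34 and 10.2 in stiff. The collagen chain Col11a1 (9.91, 14.5 and 6.16 in soft and 3.80, 1.13 and 1.15 in stiff) was the last of the 6 that lay higher in every soft library.

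Genes of lipid and sugar metabolism had medians a little above that of all genes, 0.14. Of 23 genes of cholesterol synthesis, a pathway that myelinating cells use heavily, 4 lay above without overlap (17.4%, background 7.09%) and 0 below, with a median of 0.33 (0.15 to 0.73 over the alternatives, 0.51 without soft replicate 1, 0.19 without soft replicate 3, 0.15 without stiff replicate 2 and 0.69 without stiff replicate 3). Srebf2, the transcription factor of the pathway, was at 24.6, 34.04 and 22.1 in soft and 11.4, 13.7 and 12.5 in stiff libraries, and Acat2 at 87.8, 123 and 83.7 in soft and 68.4, 68.7 and 48.03 in stiff. Msmo1, an enzyme of the later steps, was at 6.89, 11.3 and 23.8 in soft and 3.16, 0 and 0 in stiff. These genes all had their lowest soft library above their highest stiff one. Fdps, the most abundant member, was at 422, 492 and 609.9 in soft and 260.2, 366 and 603 in stiff and overlapped. Acly, which supplies acetyl-CoA for fatty acids, was at 144, 118 and 126 in soft and 84.6, 76.9 and 105 in stiff without overlap. It was 1 of 15 genes of fatty acid synthesis tested (6.67%, background 7.09%), and 0 lay below. Among 25 glycolysis genes the median was 0.43 (0.15 to 0.82 over the alternatives, 0.15 without soft replicate 1, 0.20 without soft replicate 2, 0.71 without soft replicate 3 and 0.27 without stiff replicate 3). Ldha (149, 94.1 and 93.97 in soft and 78.4, 73.2 and 62.8 in stiff) and Pgk1 (15.3, 19.4 and 16.9 in soft and 0, 4.71 and 0 in stiff) lay higher in each soft library. These 2 of 25 are 8%, near the background of 7.09%, and 0 lay below. Adjusted p by limma was 0.753 for Srebf2, 0.82 for Acat2, 0.868 for Acly and 0.845 for Ldha.

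Genes of protein synthesis and turnover had medians near 0 and below that of all genes, 0.14. Medians were -0.08 over 77 cytosolic ribosomal proteins (3 above and 4 below without overlap), -0.13 over 56 genes of oxidative phosphorylation (1 and 3), -0.05 over 32 proteasome genes (1 and 3) and -0.23 over 50 translation factors (2 and 0), and each of these medians changed sign between alternatives. In that order, a difference below 0 was found for 62.3%, 57.1%, 53.1% and 62%, where all genes had 44.5%. Without overlap, 3.9%, 1.79%, 3.12% and 4% lay above, where all genes had 7.09%. Below lay 5.19%, 5.36%, 9.38% and 0%, where all genes had 4.58%. Rpl37 was at 82.7, 73.9 and 53.9 in soft and 222, 175 and 188 in stiff libraries, while Rplp0 was at 218, 157 and 203 in soft and 91.7, 123 and 106 in stiff. These 2 ribosomal proteins went in opposite directions without overlap, and such genes have near-identical copies between which reads can be split. For 28 lysosome genes the median was -0.33 (-0.46 to -0.06 over the alternatives, -0.091 without soft replicate 1), with 1 above (3.57%) and 3 below (10.7%) without overlap. The protease Ctsa (5.36, 15.8 and 10.6 in soft and 43.3, 27.2 and 38.9 in stiff), the membrane protein Lamp2 (6.12, 6.9992 and 0 in soft and 11.7, 21.2 and 7.77 in stiff) and the proton pump subunit Atp6v0d1 (9.20, 25.04 and 31.9 in soft and 37.8, 41.2 and 35.2 in stiff) lay lower in all soft libraries than in any stiff one, and Scarb2 (5.21, 10.3 and 10.6 in soft and 0.183, 3.86 and 4.25 in stiff) higher.

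Signalling lists held few genes that separated the gels. For 15 genes of a mixed list of Notch and Id regulators the median was 0.57 (0.30 to 0.93 over the alternatives, 0.32 without stiff replicate 1 and 0.32 without stiff replicate 3). The list also holds Tcf7l2, Klf6 and Zeb2, and Tcf7l2 is listed among committed oligodendrocyte genes as well. A difference above 0 was found for 11 (73.3%, where all genes had 55.5%). The 4 below 0 were Hes5 (-1.78), Id1 (-1.95), Id3 (-1.21) and Zeb2 (-0.44). The receptor Notch1, at 36.6, 53.3 and 34.7 in soft and 18.9, 27.95 and 27.3 in stiff, lay higher in each soft library. It was 1 of 15 (6.67%, background 7.09%), and 0 lay below. Id3 ranged more within a gel than between gels, at 5.62, 21.9 and 135 in soft and 53.9, 97.7 and 46.1 in stiff. For 30 genes of growth factor signalling the median was 0.17 (0.26 without soft replicate 1, 0.32 without soft replicate 2 and 0.30 without stiff replicate 2). The kinase Akt2 (14.97, 24.02 and 21.4 in soft and 9.89, 0 and 3.90 in stiff) was the member without overlap. That is 3.33% above, where all genes had 7.09%, and 0 below. The FGF receptor Fgfr1 was at 65.05, 46.8 and 32.4 in soft and 38.8, 13.96 and 27.2 in stiff and overlapped. Of 13 interferon genes tested, 1 lay above (7.69%, background 7.09%), Irf7 (10.5, 9.45 and 8.48 in soft and 2.49, 3.68 and 7.74 in stiff). There were 2 below (15.4%, background 4.58%), among them Ifi27 (0, 0 and 0 in soft and 17.9, 20.4 and 11.1 in stiff), and the median of the list changed sign between alternatives. Of 28 histone genes, whose transcripts without poly(A) tails are seen in total RNA, 1 lay above (3.57%) and 2 below (7.14%), with a median of 0.14 that changed sign between alternatives.

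**Figure D4:**
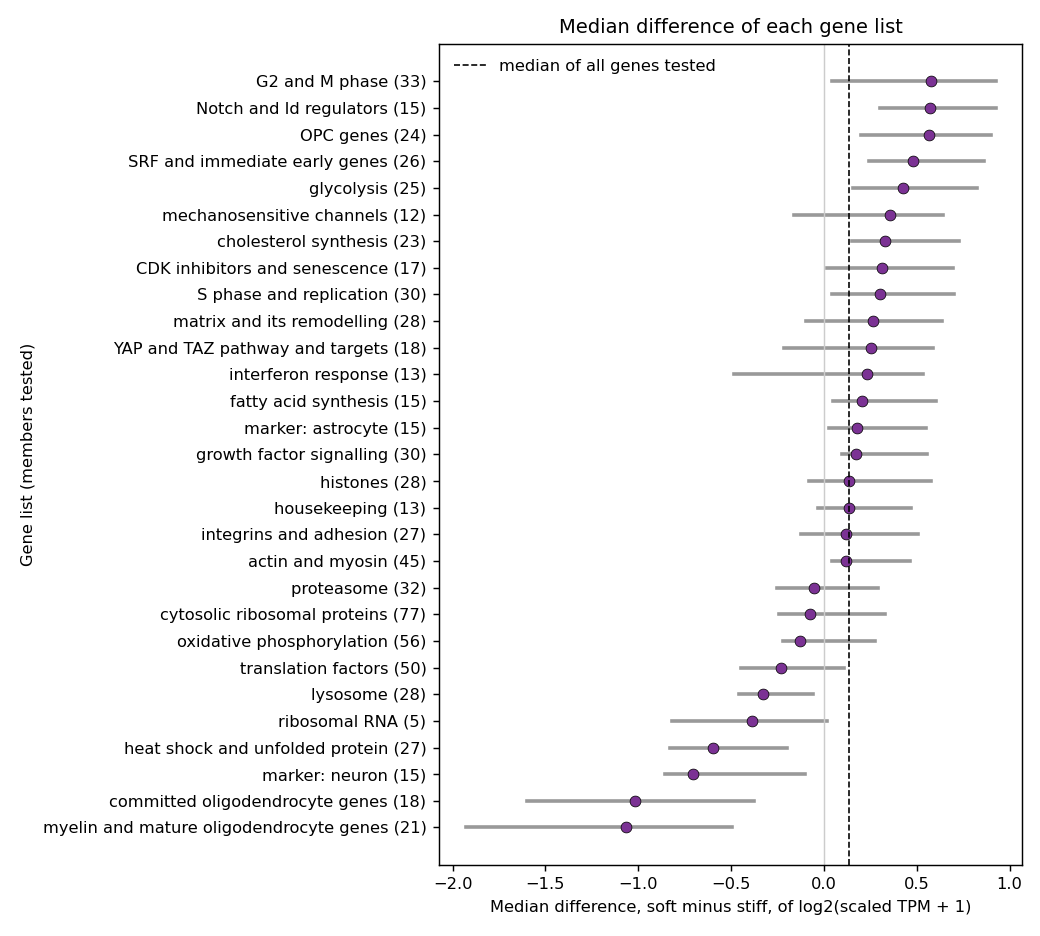
Median difference between soft and stiff gel on the log2(scaled TPM + 1) scale (horizontal axis) for the gene lists with at least 5 members tested (vertical axis, number tested in brackets); points are the medians of the main fit, grey lines run from the lowest to the highest median over the alternative settings, and the dashed line is the median of all genes tested, 0.14. Myelin and committed oligodendrocyte genes lie lowest, at -1.07 and -1.02.

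The genes with the smallest p among those without overlap had varied roles, and several rested on few reads. Btd, biotinidase (chr16:7760640-7791286, plus strand), was at 34.6, 77.2 and 28.6 scaled TPM in soft and 8.95, 5.84 and 11.1 in stiff libraries, a difference of 2.21 (SE 0.56, limma adjusted p = 0.504). Smoc1, a secreted calcium-binding protein of OPCs, was at 89.1, 82.1 and 63.02 in soft and 8.98, 8.33 and 44.2 in stiff (2.28, adjusted p = 0.504), with stiff replicate 3 between the groups. Hdac3, a histone deacetylase, was at 41.3, 56.5 and 74.8 in soft and 16.4, 22.5 and 15.5 in stiff (1.59, adjusted p = 0.504). The 3 soft values of Hdac3 and of Btd each lay clear of the stiff ones. Chchd5, a mitochondrial protein, Rplp2 of the ribosomal stalk, Twsg1, a modulator of BMP signals, G0s2, an inhibitor of lipolysis, and Cryba1, a crystallin, were listed at 0 in all stiff libraries. Chchd5 had the smallest p on this side (39.6, 37.8 and 19.6 in soft libraries, limma adjusted p = 0.422), from the equivalent of 3.92, 2.89 and 0.98 read pairs. Galk1, galactokinase, was at 33.4, 15.6 and 44.7 in soft and 4.82, 5.81 and 4.58 in stiff. Phykpl (3.09, 112 and 101 in soft and 2.18, 0 and 0 in stiff) was high in soft replicates 2 and 3 only.

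On the side lower on soft gel stood Mat2a, which makes the methyl donor S-adenosylmethionine (chr4:100297478-100303047, minus strand), at 27.7, 37.6 and 30.8 in soft and 182, 126 and 81.02 in stiff libraries (difference -1.92, SE 0.40, limma adjusted p = 0.442; voom adjusted p = 0.04). The soft values were alike and the lowest stiff value was above all of them. Pik3r3, a regulatory subunit of PI3 kinase, was at 8.78, 17.9 and 17.4 in soft and 53.4, 64.5 and 38.01 in stiff (-1.79, adjusted p = 0.504). Tcte1, known from the axoneme of motile cilia, was at 14.1, 18.9 and 16.5 in soft and 43.9, 50.8 and 65.9 in stiff. Ebna1bp2, a nucleolar protein, was at 0 in the soft libraries and at 13.1, 15.9 and 33.8 in the stiff ones, and Memo1 at 4.03, 0 and 0 in soft and 30.7, 8.38 and 32.7 in stiff. These genes, like those above, did not pass the adjusted threshold in limma, while voom gave Ebna1bp2 and Memo1 adjusted p of 0.0338 and 0.037.

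Markers of other cell types were mostly low. The 19 microglial markers summed to 41.7 to 100.8 scaled TPM in soft and 33.8 to 48.2 in stiff libraries, and Cx3cr1, Aif1, C1qa and Tyrobp were at 0 in all 6. The 15 endothelial and mural markers summed to at most 37.1, with Pecam1, Cdh5 and Cldn5 at 0 throughout. Fibroblast markers summed to at most 17.2, and those of red blood cells and ependyma to at most 37.7. Astrocyte markers were present, at sums of 328 to 673 in soft and 271 to 454 in stiff libraries. Gfap was at 35.9, 85.8 and 155 in soft and 82.6, 120.3 and 59.5 in stiff and overlapped, while Sox9, a factor of astrocytes and progenitors, lay higher in soft libraries (30.6, 18.2 and 15.9 against 4.60, 10.4 and 6.40). The astrocyte marker Aqp4 lay lower in all soft libraries. Of 15 astrocyte markers tested, these were 1 above (6.67%, background 7.09%) and 1 below (6.67%, background 4.58%). Their median was 0.18 (0.03 to 0.55 over the alternatives), against 0.14 for all genes. The 20 neuronal markers summed to 126.6 to 209.6 in soft and 180.4 to 250.98 in stiff libraries. Of 15 tested 4 lay below without overlap (26.7%, background 4.58%) and 1 above, with a median of -0.70 (-0.85 to -0.10 over the alternatives, -0.36 without soft replicate 1, -0.33 without soft replicate 2 and -0.10 without stiff replicate 2). The one above was the synaptic protein Snap25 (2.68, 2.26 and 1.79 in soft and 0, 0 and 0 in stiff). Below were Tubb3, the neuronal tubulin (0, 2.63 and 0 in soft and 13.3, 3.33 and 5.06 in stiff), Dlx1, a factor of interneuron precursors (18.97, 11.9971 and 26.7 in soft and 43.3, 47.9 and 35.99 in stiff), Dcx of migrating neuroblasts (7.61, 4.29 and 5.24 in soft and 20.4, 9.42 and 16.6 in stiff) and Stmn2 of growing axons (2.45, 0 and 2.04 in soft and 32.2, 18.8 and 7.63 in stiff). The part of these markers in the other results was not tested.

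The same contrast in aged OPCs gave no gene whose gel difference was called different between the ages. Over 13493 genes tested in the 12 gel libraries, the interaction of gel and age called 0 genes by limma (0%), and 737 (5.46%) had an unadjusted p under 0.05. Mbp stood at 64.4, 68.5 and 194 scaled TPM in aged cells on soft gel and 2.06, 10.8 and 75.4 on stiff gel, so its difference was 2.78 in aged and -2.63 in neonate cells when all 12 libraries were scaled together. The interaction was -5.41 (SE 1.38, limma adjusted p = 0.717). Cldn11 stood at 39.4, 27.4 and 98.7 on soft gel and 27.9, 0 and 76.7 on stiff gel in aged cells, with an interaction of -5.20 (adjusted p = 0.777). Neither difference between the ages passed the test.

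Hmox1 was high in all 6 aged libraries, at 482, 339.7 and 217 scaled TPM on soft gel and 616, 187 and 288 on stiff gel. Fth1 stood at 2801, 4284 and 2593 on soft gel and 3951, 2647 and 2313 on stiff gel in them. The interaction was -3.38 for Hmox1 (limma adjusted p = 0.894) and -1.74 for Fth1 (adjusted p = 0.913). These aged values overlapped between the gels, as the neonate values did. In aged cells Mir93 stood at 0, 152 and 48.4 on soft gel and at 0 in all 3 libraries on stiff gel, while in neonate cells it was above 0 on stiff gel alone (limma adjusted p of the interaction = 0.074). Pik3r3 stood at 16.7, 23.9 and 10.99 on soft gel and at 0 on stiff gel in aged cells (adjusted p of the interaction = 0.173). None of the interactions named here passed the adjusted threshold.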

How the data were processed

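Rat total RNA was sequenced after a stranded kit for picogram inputs, per the labels' protocols. The authors deposited a transcript assembly per library with TPM, FPKM and mean coverage of each transcript, made with StringTie 1.3.2d on rn6, per the file headers; Trimmomatic, HISAT2 and Bowtie are named in the submitters' processing notes without role. TPM is a share, so a library with more ribosomal RNA has less left for other genes. TPM was summed per gene (17337 genes), divided by scaling factors (median of the ratios to the geometric mean, over 3510 genes detected throughout), and tested where TPM was at least 1 in at least 3 libraries. Values of log2(scaled TPM + 1) were fitted in limma 3.58.1 (R 4.3.3) with a variance trend, with Benjamini-Hochberg adjustment over all genes tested. Read pairs were estimated from the deposited coverage as coverage times length over 300 bases. That estimate is too low for a locus shorter than a read. The scripts were tested on simulated data.

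The comparison, the gene lists and the naming rules were chosen with earlier results of these data known. Named genes were 16 fixed ones, any called gene, the 10 per direction with the smallest p among genes without overlap at a mean of at least 20 scaled TPM and above 0 throughout the higher group, and per list up to 4 per direction without overlap and the 3 highest. Others in the text were chosen after their values were seen. Library measures were tested with exact permutation tests (scipy 1.17.1). The settings varied were the pseudocount (0.1), the filter (none, or TPM 5), the scaling (3 others), the model (voom, array weights, robust prior), the libraries fitted (12, 18, or 1 left out in turn) and a replicate block. Added after the data were seen were genes under 300 bases left out and libraries thinned to 28442 pairs. The values of some list members are not reported here.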

Additional observations from a re-analysis of the deposited data

How the results depend on the processing

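Mir93, the called gene, was not called with a pseudocount of 0.1, in fits over 12 or 18 libraries, without genes shorter than 300 bases (its own length removes it) or after thinning, each of which called 0 genes lower; the other causes were not tested. Voom called 18 higher and 27 lower. Leaving out each library in turn gave 0 genes called higher and 0 to 3 lower: Mir93 fails the filter without any stiff library, Mir93, Mir2964 and LOC680227 were called without soft replicate 3, and Hmox1 without stiff replicate 3. Genes not overlapping numbered 315 higher with a filter of TPM 5 and 155 lower without scaling. With a library left out they numbered 747 to 996 higher and 608 to 790 lower, more in each case because fewer libraries must be separate. The count under voom is not reported here. The median of all genes was 0.44 without scaling, 0.31 without ribosomal RNA genes and 0.02 after quantile normalization. Of 96 named genes with a difference, 94 kept its sign in every alternative run; Ncan became 0.048 without scaling and Eif5a -0.00145 after thinning, and Mir93 was the only one to lose a call. Of 35 list medians 19 kept their sign in all alternatives. In the interaction, 0 genes were called above 0 in each alternative, and 0 to 2 below 0 with a library left out. Whether the numbers in the titles pair the samples is not stated. Same-numbered soft and stiff libraries had correlations of deviations of 0.0560, 0.0159 and 0.0289. With genes resting on few read pairs, these values cannot decide whether the libraries were paired. The names in the file headers carry other numbers, and pairing by those was not tested. With the replicate block 0 genes were called higher and 2 lower (Mir93 and Gdf15), and 0 in the interaction. At this depth most genes below about 20 scaled TPM rest on a few read pairs, and genes listed at 0 may be transcribed.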

Other observations

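Lgals1, galectin 1, was at 899, 210.0 and 35.2 scaled TPM in the soft libraries and 16.2, 55.9 and 72.7 in the stiff libraries, so that soft replicate 1 stood far above the other 5. Ndn, an imprinted gene, was at 138, 179 and 102 in soft and 61.2, 23.5 and 69.98 in stiff libraries, without overlap (1.52, SE 0.46, limma adjusted p = 0.504). Ifi27, an interferon-induced gene, was at 0 in all soft libraries and at 17.9, 20.4 and 11.1 in the stiff libraries, on the equivalent of 1.72, 1.38 and 0.977 read pairs. Atg16l1, a protein of autophagosome formation, was likewise at 0 in the soft libraries and at 11.1, 14.1 and 22.2 in the stiff ones (voom adjusted p = 5.68e-06). LOC680227 was at 0, 0 and 298 in soft and 235, 332 and 277 in stiff libraries, which sets soft replicates 1 and 2 apart from the other 4 libraries, and in aged cells it stood at 0, 0 and 399 on soft gel and 189, 509 and 8.97 on stiff gel. These genes were chosen after their values were seen, and no explanation was tested.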
